A study of Mus musculus with 10 samples.

Results

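The transcripts of 10 genes of cytokine signaling through Janus kinases (JAK) and signal transducers and activators of transcription (STAT) were followed in livers of mice injected with an antibody that activates CD95, the death receptor also called Fas. The genes are Socs1, Socs2, Socs3 and Cish, which encode feedback inhibitors, Jak1 and Jak2, Stat3, Stat5a and Stat5b, and Pim1, a kinase gene induced by STAT factors. They were taken by gene symbol, and each matched 1 of the 38922 gene identifiers in the files. All mice were wild-type males of the inbred strain C57BL/6N, aged 6 weeks. A single intraperitoneal dose of the antibody (CD95-Ab), at 0.5 µg per g of mouse, was given to 5 mice, and 5 control mice received an equal volume of saline. Livers of both groups were taken at 6 h, and total RNA of each liver was sequenced as its own library.

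When a cytokine or growth hormone binds its receptor, JAK enzymes attached to the receptor phosphorylate it and then the STAT proteins, which pair, enter the nucleus and switch on target genes. Among these targets are the genes of the suppressor of cytokine signaling (SOCS) proteins and of CIS (Cish), which bind the receptors or the JAK enzymes and shut the signal down. In liver, interleukin 6 acting through STAT3 drives the acute phase response, whereas growth hormone acting through STAT5b maintains Igf1 and the genes that differ between the sexes.

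The total was 25965699 to 62097636 counts in saline-injected mice and 27480796 to 44962196 after CD95-Ab. Values are given as CPM, the counts of a gene per 1000000 counts of its library, with totals adjusted by TMM. This scaling sets aside the genes with the most extreme ratios between libraries or the most extreme levels, and takes most genes as unchanged. All 10 hepatocyte markers checked, from Alb to Hnf4a, were detected in these livers, with summed levels of 112500 to 135800 CPM in saline-injected mice and 56860 to 96590 CPM after CD95-Ab. Most of this sum is Alb, with means of 84730 and 41430 CPM. Alb, Ttr and Ass1 were lower and 7 markers were not called. Of those 7, Apob (3557 and 4009 CPM) and Tat (1487 and 1847 CPM) had higher means after CD95-Ab. Cps1, Apoa1, Serpina1a, Serpina1c and Hnf4a had lower means, with log2 fold changes from -0.718 (Cps1) to -0.28 (Serpina1c). For Serpina1a every CD95-Ab mouse was below every saline mouse. The 10 neutrophil markers summed to 4.43 to 11.2 CPM in saline-injected mice and to 114 to 469 CPM after CD95-Ab, with all 8 tested markers higher. Higher too were 5 of 10 Kupffer cell and macrophage markers, 9 of 11 T, NK and B cell markers and 7 of 10 sinusoidal endothelial markers. Clec4f, Vsig4, Timd4, Adgre1 and Csf1r of the macrophage list and Kdr, Ptprb and Gpr182 of the endothelial list were not called. Among the higher ones, mean Lyz2 went from 34.85 to 226.9 CPM and mean Lyve1 from 6.72 to 71.7 CPM. Of all tested genes, 25.4% were higher. Neutrophil and lymphocyte markers scarcely counted in controls, such as Mmp8 (0 to 18 counts) and Ms4a1 (0 to 13), passed the filter on low counts only through the CD95-Ab group. Such markers had to be higher, while Ly6g and Camp were not tested, so the counts of those lists carry no weight. Summed levels were 162 to 503 and 524 to 909 CPM for Kupffer cells and macrophages, 2.17 to 8.16 and 13.1 to 19.3 CPM for lymphocytes, and 79.5 to 196 and 232 to 405 CPM for endothelium, in saline and CD95-Ab livers. No marker of these lists was at 0 in every mouse. Rn7sk, a noncoding RNA without a poly(A) tail, rose from 0.392 ± 0.241 to 742 ± 354 CPM (± SD over 5 mice a group). The part of cell composition and RNA quality in the changes below was not tested, and in whole liver a change in the number of cells cannot be told apart from a change of RNA per cell.

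Of the 10 genes, 7 were higher and 1 was lower after CD95-Ab at a false discovery rate (FDR) of 0.05 or less. Among the 13719 genes tested, 25.4% were higher and 22.0% lower. Socs1, Socs3, Cish and Jak2 also reached a log2 fold change of 2 or more, which 6.59% of tested genes did, although Jak2 lay near that limit. Every CD95-Ab mouse was above every saline mouse for 6 genes (18.6% of tested genes), namely those 4 with Jak1 and Stat3, and no gene had all CD95-Ab mice below all saline mice (14.7% of tested genes). Stat5b was the lower gene, and Socs2 and Stat5a did not pass the test. Socs1 passed the filter on low counts only through the CD95-Ab group, so its place in these counts carries no weight. The median log2 fold change was 1.11 over the 10 genes and 0.006 over all tested genes.

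**Figure D1:**
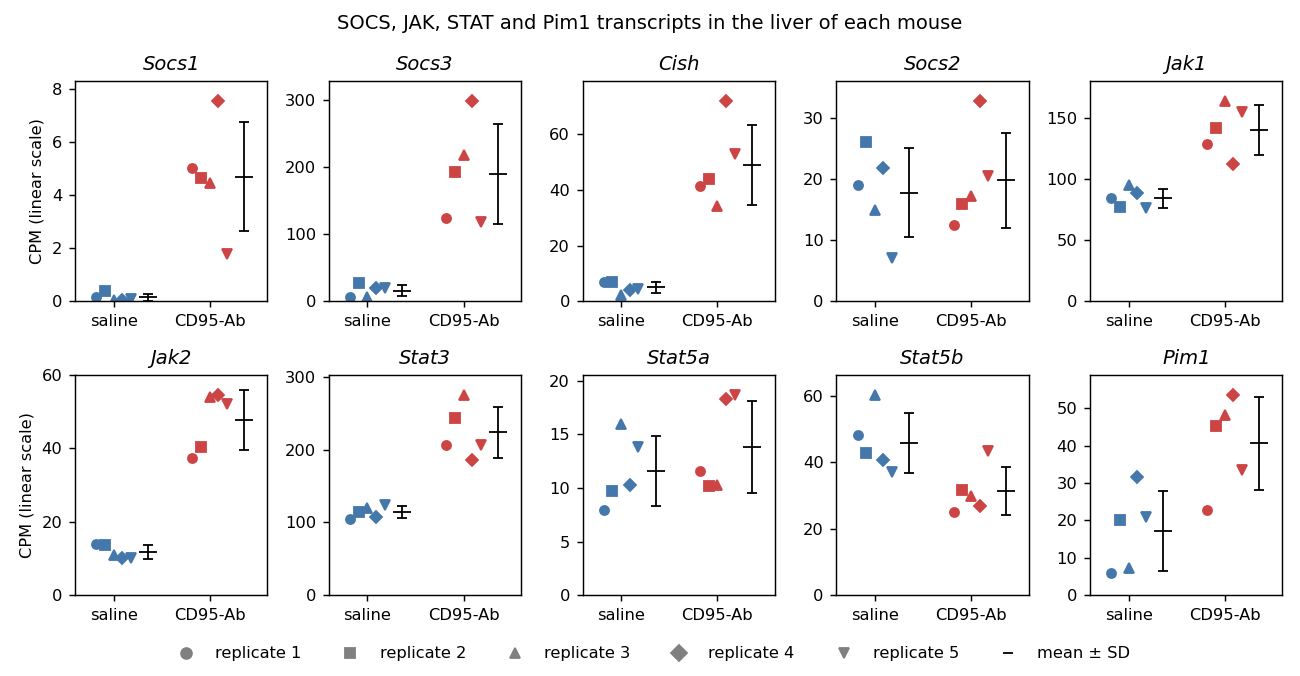
CPM of each gene (linear scale from 0) in the liver of each mouse, saline in blue and CD95-Ab in red, with a symbol for each replicate number and the mean ± SD in black. The groups are apart for Socs1, Socs3, Cish, Jak1, Jak2 and Stat3, and overlap for Socs2, Stat5a, Stat5b and Pim1.

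Feedback inhibitors showed the largest increases, and they did not move as 1 family. Socs3 encodes the main brake on interleukin 6 signaling, which binds the shared receptor chain gp130 and JAK enzymes (chromosome 11, 117966079 to 117970047, minus strand; positions of this and all genes below are GRCm38). It was at 6.89, 26.6, 6.90, 19.7 and 20.2 CPM in saline replicates 1 to 5, and at 124, 192, 218, 298 and 118 CPM in CD95-Ab replicates 1 to 5. The lowest CD95-Ab mouse was thus well above the highest saline mouse. Mean levels were 16.1 ± 8.8 and 190 ± 74 CPM (± SD over 5 mice a group), an 11.8-fold increase (log2 fold change 3.56, standard error 0.43; FDR of 5.03e-05 by the quasi-likelihood F test in edgeR, as for every FDR below).

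Socs1, an inhibitor that blocks JAK kinase activity and restrains interferon γ signaling (chromosome 16, 10782240 to 10785536, minus strand), was scarcely present in controls, with 7, 13, 2, 1 and 5 counts in the 5 saline livers. That is 0.165, 0.385, 0.0564, 0.0385 and 0.0927 CPM, and the values in replicates 3 and 4 rest on fewer than 3 counts. After CD95-Ab, Socs1 reached 5.04, 4.65, 4.46, 7.55 and 1.79 CPM, from 81 to 187 counts. All of these values lay above the control range. The log2 fold change of 4.95 (standard error 0.53, 95% interval 3.80 to 6.11, FDR = 1.97e-05) was the largest of the 10, but its size rests on the few counts of the control livers. Socs1 passed the filter on low counts through the CD95-Ab group, so this value is given without support from the test.

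Cish encodes CIS, which competes with STAT5 for docking sites on receptors (chromosome 9, 107296026 to 107302784, plus strand). Saline livers held 6.92, 7.12, 2.42, 4.08 and 4.36 CPM, and livers exposed to CD95-Ab held 41.6, 44.0, 34.4, 72.0 and 52.9 CPM. The ranges were far apart. The increase was 9.81-fold (log2 fold change 3.29, standard error 0.30, FDR = 6.33e-06).

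Socs2, which limits growth hormone signaling in liver (chromosome 10, 95385362 to 95417180, minus strand), behaved differently. It was at 19.1, 26.2, 15.0, 21.8 and 7.03 CPM in saline livers and at 12.5, 16.0, 17.2, 32.8 and 20.5 CPM after CD95-Ab. The groups overlapped almost fully, and 1 CD95-Ab mouse, replicate 4, lay above all controls. The log2 fold change was 0.15 (95% interval -0.56 to 0.87, FDR = 0.722), an interval that leaves room for a fall or a rise of moderate size.

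Because Socs2 and Cish are both known STAT5 targets, their ratio was compared within each liver, where the scaling of totals cancels. The log2 ratio of Cish to Socs2 was -1.79 ± 0.77 in saline livers and 1.33 ± 0.29 after CD95-Ab (± SD over 5 mice a group), an 8.73-fold change (exact permutation test, two-sided, p = 0.00794, adjusted p = 0.0119 over 6 ratios). The ratio was higher in all 5 CD95-Ab mice than in any control. Cish transcripts were fewer than those of Socs2 in every saline liver and more numerous in every CD95-Ab liver by count, without correction for length. The ratio of Socs3 to Socs2 rose likewise, by 3.48 on the log2 scale (standard error 0.56, exact permutation test, p = 0.00794, adjusted p = 0.0119), again with all 5 CD95-Ab mice above the controls. The exact permutation p = 0.00794 is the smallest that 5 mice against 5 allow. The 6 ratios, here and below, were chosen with earlier results of these data known, so their p-values are a description. For Socs3 against Socs1 no statement can be made, since the sign of the change depends on the constant added to the few Socs1 counts, at -0.63 with 0.1 CPM (p = 0.238, exact permutation test) and 1.35 with 1 CPM.

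The remaining SOCS genes changed less than Socs1, Socs3 and Cish. Socs5, which acts on interleukin 4 and epidermal growth factor signaling, rose from 3.87 ± 1.22 to 10.7 ± 0.9 CPM (± SD over 5 mice a group; log2 fold change 1.47, FDR = 1.02e-04), with all CD95-Ab mice above all controls. The log2 fold changes of Socs4 (-0.17), Socs6 (0.14) and Socs7 (0.12) did not pass the test, at FDR values of 0.461, 0.448 and 0.635.

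**Figure D2:**
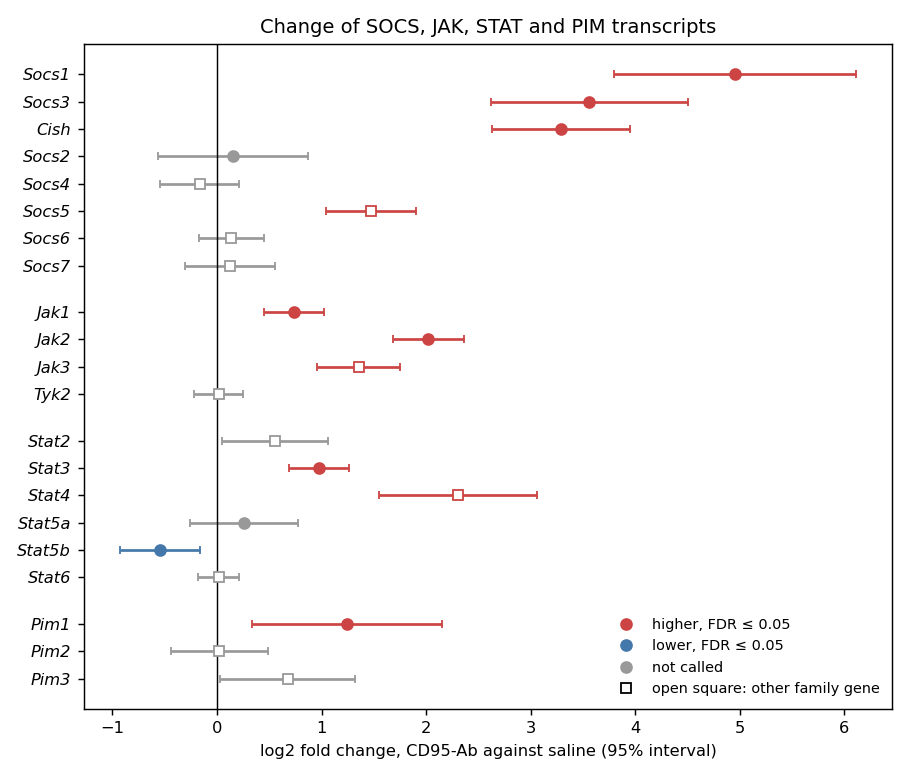
Log2 fold change of CD95-Ab against saline with its 95% interval from edgeR, for the 10 genes (filled circles) and other SOCS, JAK, STAT and PIM genes (open squares), red where higher and blue where lower at an FDR of 0.05 or less. The largest values belong to Socs1 (4.95), Socs3 (3.56) and Cish (3.29), and Stat5b (-0.55) is the lower gene.

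STAT dimers bind the palindrome TTCNNNGAA, and the promoter windows of RefSeq (GRCm38.p6; 250 bases before to 50 bases after each annotated start) were searched for it. The motif is its own reverse complement, so both strands are covered. Windows were found for 9 of the 10 genes (12 windows), and Socs2 had none. The motif lay in the windows of Cish and Socs3, that is in 2 of the 12 windows, compared with 8.30% of all 32851 windows. The stretches that hold it are shown because these are among the genes with the largest increases, with the motif in capitals, 5′ to 3′ on the strand of the gene.
Cish: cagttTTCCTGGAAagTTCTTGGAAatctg
Socs3: cagccTTCTTAGAAgggag
The stretch of Cish (chr9:107296654-107296683, plus strand) holds the motif 2 times, beginning at bases 1 and 12 from the RefSeq start, in an untranslated part of an exon in GENCODE release M21. The stretch of Socs3 (chr11:117969507-117969525, minus strand) begins its motif 154 bases before the RefSeq start, inside the gene but outside the exons of that release. A match is a description of the letters, and the windows of the other genes can hold sites of other forms.

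The kinases were both higher, to unequal degrees. Jak2, which serves the receptors of growth hormone, prolactin, erythropoietin and interferon γ (chromosome 19, 29251828 to 29313080, plus strand), was at 13.8, 13.7, 10.9, 10.04 and 10.2 CPM in saline livers and at 37.3, 40.3, 53.9, 54.6 and 52.2 CPM after CD95-Ab. Every CD95-Ab mouse was above every control by a wide margin. The increase was 4.06-fold (log2 fold change 2.02, standard error 0.16, FDR = 2.05e-06). Jak1, the kinase that pairs with gp130, interferon and interleukin 2 family receptors (chromosome 4, 101152367 to 101265282, minus strand), was at 84.5, 77.3, 95.01, 88.8 and 76.1 CPM in controls and at 129, 142, 164, 112 and 155 CPM after CD95-Ab. These ranges did not overlap either, but the change was 1.67-fold (log2 fold change 0.74, standard error 0.13, FDR = 6.95e-04). In the same livers the log2 ratio of Jak1 to Jak2 fell from 2.85 ± 0.29 to 1.56 ± 0.31 (± SD over 5 mice a group; exact permutation test, p = 0.00794, adjusted p = 0.0119), with all 5 CD95-Ab mice below the controls. Of the other kinases, Jak3, which is used by lymphoid and myeloid cells, rose from 8.98 ± 2.38 to 23.1 ± 3.6 CPM (± SD over 5 mice a group; log2 fold change 1.35, FDR = 1.00e-04). Tyk2 was at 17.7 ± 0.7 and 18.0 ± 2.3 CPM (± SD over 5 mice a group), with a log2 fold change of 0.02 (95% interval -0.22 to 0.25), a sign that turns under 3 of the scalings and filters tried.

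The STAT genes moved in both directions. Stat3, the mediator of interleukin 6 signaling (chromosome 11, 100885098 to 100939540, minus strand), was at 104, 114, 120, 108 and 124 CPM in saline livers and at 207, 244, 276, 186 and 207 CPM after CD95-Ab. All CD95-Ab values were above the control range. It rose 1.97-fold (log2 fold change 0.97, standard error 0.13, FDR = 1.03e-04).

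Stat5b, the main growth hormone mediator of liver (chromosome 11, 100780731 to 100850724, minus strand), was at 48.2, 42.7, 60.3, 40.8 and 37.0 CPM in controls and at 25.2, 31.6, 29.8, 26.9 and 43.3 CPM after CD95-Ab. Replicates 1 to 4 of the CD95-Ab group lay below all controls, and replicate 5 lay within their range. The log2 fold change was -0.55 (standard error 0.17, 95% interval -0.92 to -0.17, FDR = 0.0219). This call was lost without saline replicate 3 (log2 fold change -0.43, FDR = 0.0549) or without CD95-Ab replicate 1 (-0.48, FDR = 0.0530). Of the 10 hepatocyte markers 3 were also lower (Alb, Ttr and Ass1) and 7 were not called, beside 22.0% lower among all tested genes. The median log2 fold change of these 10 markers was -0.376, beside 0.006 over all tested genes. For 4 of them every CD95-Ab mouse was below every control, as for 14.7% of tested genes. What part the change in hepatocyte markers has in the Stat5b value was not tested.

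Stat5a, the close paralog of Stat5b with a larger part in mammary gland and blood cells (chromosome 11, 100859351 to 100885169, plus strand), was at 7.95, 9.72, 16.0, 10.3 and 13.8 CPM in controls and at 11.6, 10.2, 10.3, 18.3 and 18.7 CPM after CD95-Ab. The groups overlapped, with replicates 4 and 5 of the CD95-Ab group above all controls. Its log2 fold change was 0.26 (95% interval -0.26 to 0.78, FDR = 0.395). The log2 ratio of Stat5a to Stat5b went from -2.001 ± 0.42 to -1.203 ± 0.42 (± SD over 5 mice a group), a 1.74-fold change (exact permutation test, p = 0.0238, adjusted p = 0.0286). Only 3 of 5 CD95-Ab mice were above all controls, and with 7 of the 10 mice left out in turn the adjusted p was 0.0571. The 3 genes lie side by side on chromosome 11, with 8626 bp between Stat5b and Stat5a and an overlap of 72 bp between the ends of Stat5a and Stat3, which are on opposite strands. Reads of the 2 close paralogs, and of the shared stretch where strand was not used, are divided by RSEM, so the Stat5a values are less certain than those of Stat3.

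The log2 ratio of Stat3 to Stat5b rose from 1.33 ± 0.29 to 2.85 ± 0.36 (± SD over 5 mice a group), a 2.86-fold shift (exact permutation test, p = 0.00794, adjusted p = 0.0119), with all 5 CD95-Ab mice above the controls. Of other STAT genes, Stat4, which acts downstream of interleukin 12 in lymphocytes and myeloid cells, was at 0.281 ± 0.155 and 1.41 ± 0.29 CPM (± SD over 5 mice a group), from 4 to 18 and 31 to 66 counts. It entered the test through the CD95-Ab group, so its log2 fold change of 2.30 is given without support from the test. Stat2, which acts downstream of type I interferons, had a log2 fold change of 0.56 (FDR = 0.0662; 0.66 and FDR = 0.0437 without saline replicate 2), and Stat6, which acts downstream of interleukin 4, was at 51.7 ± 1.6 and 52.3 ± 3.0 CPM (± SD over 5 mice a group; FDR = 0.892).

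**Figure D3:**
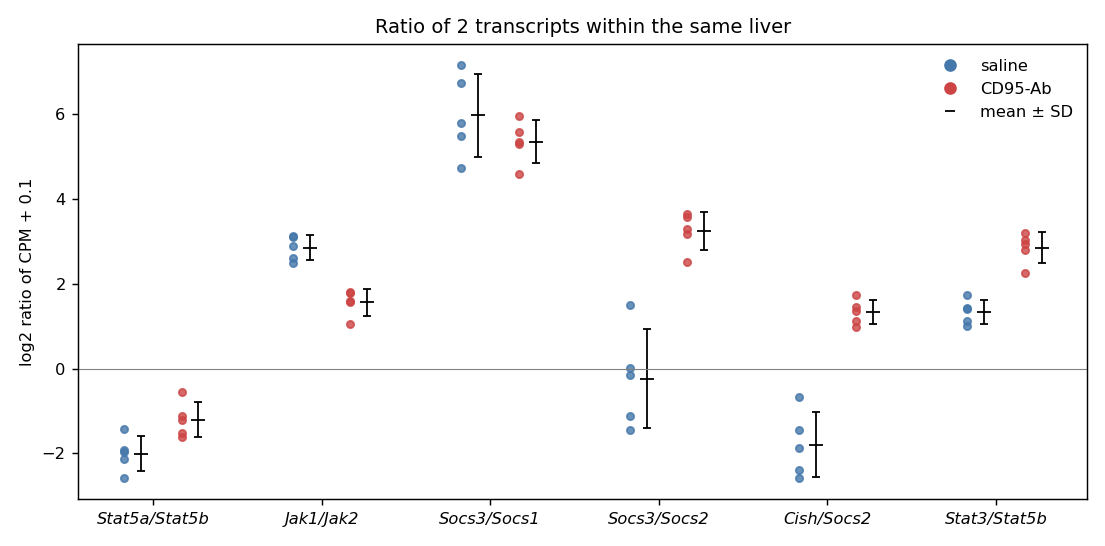
Log2 ratio of 2 transcripts in the same liver, computed from CPM + 0.1, for saline (blue) and CD95-Ab (red) mice, with the mean ± SD in black. The groups are apart for Jak1/Jak2, Socs3/Socs2, Cish/Socs2 and Stat3/Stat5b, and overlap for Stat5a/Stat5b and Socs3/Socs1.

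Pim1, a survival kinase whose gene is a target of STAT3 and STAT5 (chromosome 17, 29490753 to 29496112, plus strand), varied widely among controls. Its level was 5.98, 20.2, 7.30, 31.5 and 20.9 CPM in saline livers and 22.7, 45.2, 48.3, 53.6 and 33.5 CPM after CD95-Ab. CD95-Ab replicates 2 to 5 were above all controls, and replicate 1 lay within their range. The log2 fold change was 1.24 (standard error 0.42, FDR = 0.0274), and the call was lost without saline replicate 3 (1.04, FDR = 0.0531) or without CD95-Ab replicate 2 (1.204, FDR = 0.0542), 3 (1.17, FDR = 0.0568) or 4 (1.101, FDR = 0.0567). Its relatives Pim2 and Pim3 did not pass the test, but Pim3 did without saline replicate 5 (0.85, FDR = 0.0312) or CD95-Ab replicate 1 (0.82, FDR = 0.0381). Pim2 was at 2.76 ± 0.13 and 2.80 ± 0.96 CPM and Pim3 at 128 ± 48 and 205 ± 75 CPM (± SD over 5 mice a group; FDR = 0.946 and 0.0794).

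Levels of different genes were compared per length, as FPKM (fragments per kilobase of transcript at a common library total), the second value that the authors deposited. In saline livers Stat3 (29.4 ± 2.2 FPKM) and Jak1 (18.7 ± 2.3 FPKM; ± SD over 5 mice) had the highest means, Stat3 with a range clear of Jak1 and Jak1 with a range clear of Stat5b, though Pim1 in replicate 4 (16.4 FPKM) reached into the range of Jak1. Stat5b (9.54 ± 2.36), Pim1 (9.09 ± 5.49), Socs2 (9.002 ± 4.16) and Socs3 (6.83 ± 3.82 FPKM) followed with overlapping ranges, so their order is not fixed. Stat5a (3.26 ± 0.79), Jak2 (2.49 ± 0.63) and Cish (1.64 ± 0.81 FPKM) were lower, again with ranges that overlap from each to the next, and Socs1 (0.138 ± 0.144 FPKM) was below all others.

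After CD95-Ab this order was rearranged. Socs3 had the highest mean (72.7 ± 21.1 FPKM; ± SD over 5 mice) and was above Stat3 (56.5 ± 7.7 FPKM) in 3 of 5 livers, so these 2 genes are not apart. Stat3 remained above Jak1 (29.7 ± 4.9 FPKM) in all 5. Cish, 9th of 10 in saline livers, was 5th at 15.1 ± 3.1 FPKM, below Pim1 (20.2 ± 4.5 FPKM) in 4 of 5 livers. Jak2 (9.31 ± 0.98), Socs2 (8.58 ± 2.60), Stat5b (6.11 ± 1.66), Stat5a (3.91 ± 1.202) and Socs1 (3.87 ± 1.53 FPKM) followed, each with a range that overlaps the next. Stat5a was above Socs1 in 1 of 5 livers, so the order of these means is not that of most mice. Stat5b, 3rd in saline livers, was 8th.

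**Figure D4:**
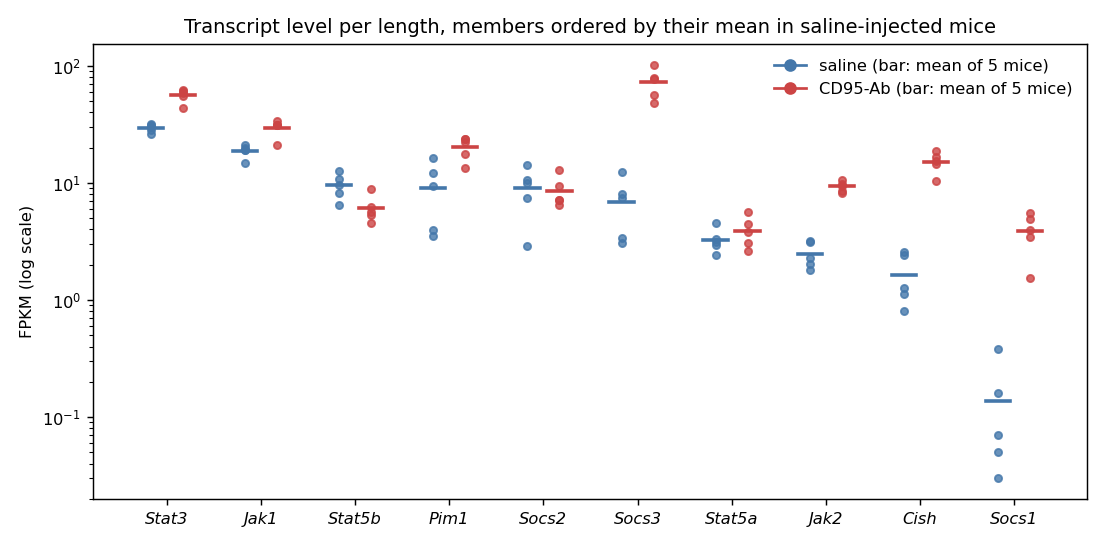
FPKM (log scale) of the 10 genes in each saline (blue) and CD95-Ab (red) mouse, ordered by the mean in saline-injected mice, with bars at the mean of 5 mice. Socs3 moves from the 6th to the highest mean, and Socs1, below all others in saline livers, lies among the values of Stat5a after CD95-Ab.

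Individual livers did not rank alike for all genes. In CPM, CD95-Ab replicate 4 had the highest level of 6 of the 10 genes in its group, Socs1, Socs2, Socs3, Cish, Jak2 and Pim1. It had the lowest of Stat3 and Jak1. In FPKM, Jak2 was highest in replicate 5 (10.6) and was at 9.42 in replicate 4. Replicate 4 had the lowest share of counts from albumin (2.88%, against 3.06% to 5.44% in the other CD95-Ab mice and 7.72% to 9.65% in controls), while its summed neutrophil markers (298 CPM) lay in the middle of the group. Without it, Pim1 alone of the 8 called genes was lost. CD95-Ab replicate 5 had the lowest level of Socs1 and Socs3 and the highest of Stat5a and Stat5b. Among controls, replicate 2 was highest in CPM for Socs1, Socs2, Socs3 and Cish, though in FPKM Cish was at 2.44 there and 2.58 in replicate 1. The spread between mice, as the SD in percent of the mean, went from 54.7% to 39.1% for Socs3, and was 40.8% and 39.4% for Socs2.

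The rest of the pathway was read from lists of known genes, in which 52 of 97 tested genes were higher and 13 lower, beside 25.4% higher and 22.0% lower among all tested genes. These lists were compiled with earlier results of the same mice known, so their counts are a description.

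Among the ligands, 5 of the 10 tested genes were higher and 1 was lower, and 17 of the 27 listed genes had too few counts to be tested. Those that passed the filter only through the CD95-Ab group had to be higher, so this count carries no weight. Lif, a ligand of the interleukin 6 family, went from 0.0190 ± 0.0267 to 11.6 ± 6.1 CPM, and Osm (oncostatin M), of the same family, from 0.0296 ± 0.0215 to 3.27 ± 2.29 CPM (± SD over 5 mice a group). Both were at or near the limit of detection in controls. Il6 itself, named here after its values were seen, was low in both groups, at 0.0839 ± 0.0800 and 1.32 ± 0.73 CPM (± SD over 5 mice a group), with at most 11 counts in a saline liver, and it too entered the test through the CD95-Ab group. Ctf1, which encodes cardiotrophin 1, fell by 1.19 on the log2 scale (FDR = 0.00221). Ligands made outside the liver, such as growth hormone, cannot be read from these RNAs.

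Of 29 tested receptor chains, 18 were higher and 4 were lower, beside 25.4% and 22.0% of all tested genes. Some chains scarcely counted in controls passed the filter only through the CD95-Ab group and had to be higher. The count is therefore a description and is not read against the background. Csf3r, the receptor of granulocyte colony stimulating factor and itself 1 of the neutrophil markers, rose most, from 2.16 ± 0.96 to 27.1 ± 11.7 CPM, and Il2rg, the common γ chain of lymphoid cytokine receptors, from 2.45 ± 1.31 to 18.9 ± 2.3 CPM (± SD over 5 mice a group; log2 fold changes 3.63 and 2.94). Chains used by hepatocytes went in both directions. The shared chain gp130 (Il6st) rose from 94.8 ± 18.0 to 196 ± 42 CPM and the oncostatin M receptor (Osmr, also listed as a STAT3 target) from 3.28 ± 0.99 to 21.4 ± 3.7 CPM, while the interleukin 6 receptor chain (Il6ra) was at 31.1 ± 15.7 and 24.5 ± 9.4 CPM (± SD over 5 mice a group; FDR = 0.494). These 3 were named after their values were seen. Prlr, the prolactin receptor, fell by 1.28 on the log2 scale, from 132 ± 18 to 54.2 ± 10.3 CPM (± SD over 5 mice a group; FDR = 4.44e-05). Epor, the erythropoietin receptor, had a log2 fold change of -2.61, from 13 to 47 counts in saline livers and 1 to 7 after CD95-Ab, and entered the test through the saline group. Ghr, the growth hormone receptor, named after its values were seen, had a log2 fold change of -0.39 (FDR = 0.0457).

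Of 10 tested genes of other restraints on the pathway (PIAS proteins, phosphatases and the adaptor Sh2b3), 4 were higher and 3 were lower, beside 25.4% and 22.0% of all tested genes. The higher genes were the phosphatase genes Ptpn1, Ptpn2, Ptpn6 and Ptprc, the lower ones Pias2, Pias3 and Pias4, and Pias1, Ptpn11 and Sh2b3 were not called. Ptprc, the leukocyte phosphatase CD45, rose from 8.65 ± 4.32 to 44.8 ± 12.0 CPM, and Ptpn2, a phosphatase of JAK1 and STAT proteins, from 10.5 ± 2.1 to 40.8 ± 8.2 CPM (± SD over 5 mice a group; log2 fold changes 2.37 and 1.96). Pias3, an inhibitor of STAT3 binding to DNA, fell by 1.06 on the log2 scale (FDR = 0.00169) and Pias4 by 0.44 (FDR = 0.00715).

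Among 22 known STAT3 target genes, 20 were higher and none was lower (median log2 fold change 1.87), compared with 25.4% higher among all tested genes. Lcn2 (lipocalin 2), an acute phase gene, rose from 29.6 ± 21.2 to 1771 ± 679 CPM, and Ier3, an immediate early gene, from 1.25 ± 0.54 to 63.1 ± 34.7 CPM (± SD over 5 mice a group; log2 fold changes 5.90 and 5.62). Ccnd1 and Fos were the 2 that did not pass the test. Timp1, counted as higher and named after its values were seen, had 3 to 8 counts in saline livers and entered the test through the CD95-Ab group. Many of these genes are known to answer to NF-κB or C/EBP factors as well as to STAT3.

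The 20 known targets of growth hormone and STAT5 comprised 5 higher, 7 lower and 8 not called (median log2 fold change -0.23), beside 25.4% higher and 22.0% lower among all tested genes. The share of higher genes was near the background and that of lower genes above it. The lower genes include Prlr and Ghr, also counted as receptor chains. The list mixes genes maintained by growth hormone, such as Igf1, with repressed ones, such as Bcl6, so these counts do not measure STAT5 activity. Cux2, a transcription factor gene of the sex-dependent program, went from 2.26 ± 1.52 to 0.295 ± 0.149 CPM and Bcl6, which is known to be repressed by growth hormone, from 52.6 ± 20.7 to 18.1 ± 4.4 CPM (± SD over 5 mice a group; log2 fold changes -2.96 and -1.54). Cux2 had 3 to 15 counts after CD95-Ab and entered the test through the saline group. The largest increases in this list, which leaves out Cish and Socs2, were those of Igfbp1, an insulin-like growth factor binding protein also known to respond to stress, with a log2 fold change of 2.29, and of the survival gene Bcl2l1, also listed as a STAT3 target, with 2.05. Igf1, the best known of these targets and named after its values were seen, was at 483 ± 64 and 383 ± 69 CPM (± SD over 5 mice a group; log2 fold change -0.33, FDR = 0.0957), and its carrier Igfals, named likewise, fell by 1.23 on the log2 scale (FDR = 9.97e-04).

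**Figure D5:**
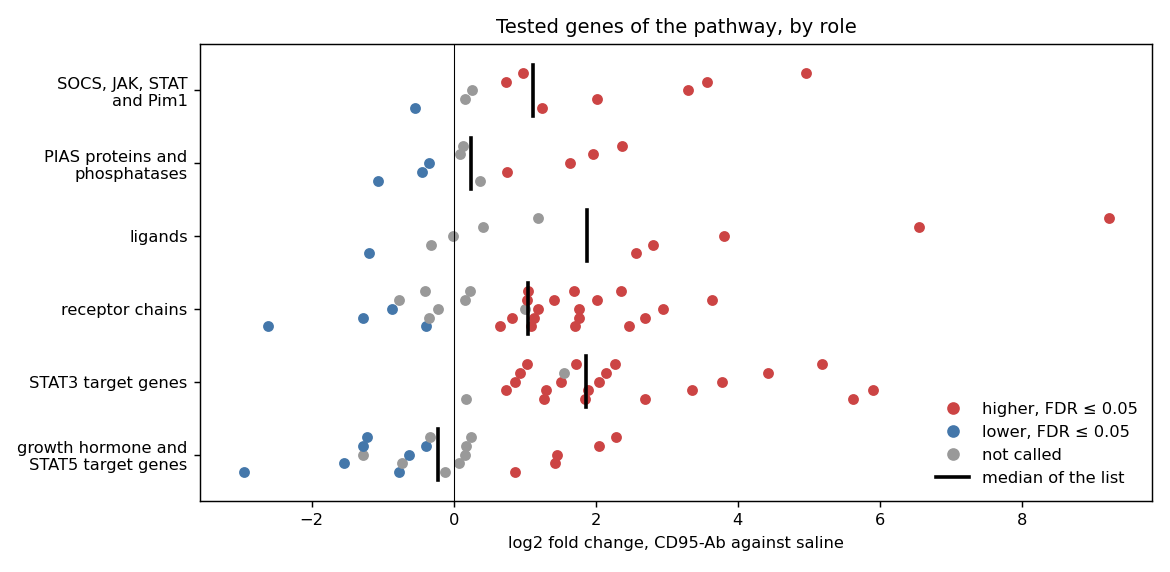
Log2 fold change of CD95-Ab against saline for each tested gene, by role in the pathway, red where higher, blue where lower and grey where not called at an FDR of 0.05 or less, with a black bar at the median of each list. The STAT3 target genes lie to the right of 0 (median 1.87), and the growth hormone and STAT5 target genes spread to both sides (median -0.23).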

How the data were processed

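RNA-seq of 10 mouse livers (5 saline, 5 CD95-Ab) was analysed. Per the labels and the paper, the authors assigned reads to genes with RSEM 1.2.19. The expected counts they deposited are whole numbers without normalization, and the FPKM they deposited are scaled for length and total. Their methods cite human Gencode annotation, whereas the identifiers are those of mouse genes. The mouse annotation and the strand setting are not given in the sources used here. Symbols were matched for 37606 of 38922 identifiers, positions came from GENCODE release M21 (GRCm38), and promoter windows from RefSeq (GRCm38.p6).

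Genes were kept by filterByExpr (minimum count 10), totals scaled by TMM, and the 2 groups fitted over all kept genes in edgeR 4.0.16 (R 4.3.3; glmQLFit and glmQLFTest), with Benjamini-Hochberg adjustment. Thresholds were an FDR of 0.05 and a log2 fold change of 2. Standard errors came from the F statistic. Ratios used log2(CPM + 0.1) and exact permutation tests in scipy 1.17.1. The code was tested on simulated data. At the lowest total, 3 counts equal 0.116 CPM.

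The members, lists and tests were chosen with earlier results of these data known. Named were the members, their SOCS, JAK, STAT and PIM relatives, and from each other list the 2 called genes with the largest change in each direction, except that 1 relative is not reported here. Any other gene is marked as named after its values were seen, or belongs to the markers. Alternatives were DESeq2 1.42.0, RLE and upper-quartile factors, other filters, other pseudocounts, medians, a block for the replicate number, and fits that each omit a mouse. The labels call the mice of a group biological replicates, and no pair held counts within sampling noise (chi-square per degree of freedom 42.4 to 554 over 20 pairs).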

Additional observations from a re-analysis of the deposited data

Results flagged for a closer look

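Of 44 groups checked for a stray mouse (the 10 genes and their 12 relatives, in saline and CD95-Ab mice), 1 held a mouse far from the others by Dixon's criterion, while chance gives about 1 in 20. Stat2 was at 128 CPM in CD95-Ab replicate 4 and between 59.3 and 79.1 CPM in the other 4 mice of that group.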

How the results depend on the processing

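The 10 genes gave 6 or 7 higher calls under all alternatives, and 3 or 4 with a log2 fold change of 2 or more, since Jak2 lies at that limit (1.94 to 2.10) and Socs1 is lost where every mouse must hold at least 10 counts. The number of lower genes was 0 to 1 over the 10 fits that each left out a mouse. Calls of Socs1, Socs3, Cish, Jak1, Jak2 and Stat3 held in every fit that tested them. Values near 0 changed sign: Tyk2 was -0.004 with DESeq2, -0.059 with upper-quartile factors and -0.017 with no filter, Stat6 -0.006, -0.061 and -0.019, and Pim2 -0.007, -0.056 and -0.018, and -0.034 for Pim2 with the replicate block. With each mouse left out, values ran from -0.114 to 0.328 for Socs2, -0.009 to 0.240 for Socs7, -0.075 to 0.061 for Tyk2, -0.027 to 0.040 for Stat6 and -0.221 to 0.128 for Pim2. The change of the Socs3/Socs1 ratio was 1.35 with a pseudocount of 1 and -1.49 with 0.01, which follows from Socs1 counts near 0. That of Stat5a/Stat5b was 0.635 to 0.943 with each mouse left out. Same-numbered mice deviated together with correlations of -0.274 to 0.257 (mean 0.037, against -0.006 for other pairs), and 2 of 5 numbers correlated best with their own. So few correlations neither show nor exclude a pairing by number. With the replicate block, 7 genes were higher and 1 lower, and the changes in ratio were 0.798 for Stat5a/Stat5b, -1.28 for Jak1/Jak2, 3.48 for Socs3/Socs2, 3.13 for Cish/Socs2 and 1.51 for Stat3/Stat5b, all at an adjusted p of 0.0750, where 5 pairs cannot give an exact p below 0.0625. Medians in place of means moved no FPKM level by more than 1 SD. Counts per kilobase of effective length were not run, since the tables used hold no lengths. Saline counts of 1 to 13 limit how closely the Socs1 change is known.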

Other observations

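Of the 27 listed ligands of the pathway 10 were tested, and the others had too few counts. Csf3, which encodes granulocyte colony stimulating factor, had no counts in saline livers and was at 1.65 ± 2.20 CPM after CD95-Ab, Il11 was at 0.00564 ± 0.0126 and 0.339 ± 0.078 CPM, and Il27 at 0.0923 ± 0.0828 and 0.380 ± 0.116 CPM (SD, n = 5 mice each). For these 3 of the untested ligands every CD95-Ab mouse was above every control, a share near the 18.6% of tested genes. Other untested ligands were not apart, such as Il12b and Csf2, where 3 of 5 CD95-Ab mice were above all controls. Ifng was low in both groups, at 0.0391 ± 0.0501 and 0.148 ± 0.095 CPM, and Ifnb1 had no counts in any mouse. A count of 0 allows up to 3 counts, which is 0.0483 to 0.116 CPM in these libraries. These genes were named after their values were seen.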
